A study of Mus musculus with 24 samples.

Results

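The regions described here are stretches of the mouse genome (build mm9) that the array names only by chromosome, start, end and a strand letter, F or R, read here as the forward and the reverse strand. They were taken as every probe that is not a control and whose name has this form, with chromosomes X and Y left out. This gave 4275 of 56605 probes, which stand for 3905 combinations of interval and strand, called regions below, over 3093 distinct intervals. Many intervals overlap: 1679 of them share bases with another, and merging overlaps leaves 2050 separate loci, the largest of which holds 13 intervals. Both strands are on the array for 812 intervals, and 299 regions have more than 1 probe, with at most 6. The intervals run from 62 to 538251 bases, with a median of 7328.

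The arrays came from a study of aging and senescent cells, in which white adipose tissue (WAT), kidney, lung and liver were taken from young mice at 10 weeks (10W) and aged mice at 90 weeks (90W). All mice were labelled as C57BL/6J males without a transgene or treatment, and each tissue and age has 3 arrays, 24 in all. The aged livers are numbered 1, 2 and 4, and the labels do not say whether a mouse contributed more than 1 tissue. A tissue's 6 arrays were on 1 slide and scanned together, both ages side by side, so that tissue and slide cannot be told apart.

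Long intergenic noncoding RNAs (lincRNAs) are transcripts made outside protein-coding genes. Many were found from chromatin: a promoter mark followed by a mark of elongating RNA polymerase along a stretch with no annotated gene points to a transcribed unit before its exons are known. Such transcripts are usually less abundant and more restricted to tissues than messenger RNAs, and a stretch of genome can be transcribed from either strand, which is why an array may carry probes for both. Neither the sequences of the probes nor the genome of build mm9 was used here, so no region is given a sequence, an exon or the name of a gene, and probes that read a shared repeat or a duplicated stretch cannot be told apart from probes that read their own locus.

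The signal of a probe is given as a log2 level, that is the log2 of the background-subtracted processed signal minus the 75th percentile of its array, so that 0 is the level below which 75% of the array's probes lie. A probe's signal depends on its sequence, and levels are therefore compared between arrays and not between regions. Where a region is named for having the highest signal, this served to choose which to describe and does not rank the amounts of RNA. A region was called detected in a tissue when the image software judged a probe well above background on 3 or more of that tissue's arrays. Between 45.2% and 64.9% of the region probes were well above background on an array. The lowest share was on the aged lung array 1, where the other lung arrays had 55.7% to 62.2%, and its lowest signal called well above background was 32.9 units against 12 to 15.5 on the other lungs. The young WAT array 1 had the lowest correlations with arrays of its own group, 0.942 and 0.951 over all probes. The summed signal of the defining markers of each labelled tissue was high in that tissue. Liver markers (albumin and others), for example, had a sum 4876 to 5578 times the array's 75th percentile in young liver. The white fat marker Lep by itself was not high in WAT. Its mean level was -0.27 in young and -0.65 in aged WAT, against 0.11 in young liver. In the aged lung array 1 the sum of the liver markers reached 222 times the 75th percentile, whereas the young lungs had 7.51 to 19.8.

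The regions were detected in every tissue at a similar rate. The liver had 2182 of the 3905 (55.9%), the lung 2391 (61.2%), the kidney 2555 (65.4%) and WAT 2379 (60.9%). Counted by probe, 54.5% to 64.1% of the region probes were detected in a tissue, below the 74.0% to 81.4% of probes for protein-coding RefSeq transcripts and above the 37.3% to 45.8% of probes for noncoding RefSeq transcripts. Most regions were detected either everywhere or nowhere: 1984 (50.8%) were detected in all 4 tissues and 1103 (28.2%) in none, whereas 344, 195 and 279 were detected in 1, 2 and 3 tissues. Counted by probe, 49.4% of region probes were detected in all 4 tissues and 29.3% in none. The shares were 51.4% and 27.8% for Ensembl transcripts, 70.5% and 13.3% for protein-coding and 31.5% and 45.6% for noncoding RefSeq probes. The pattern is therefore not particular to the regions. Detection on all 6 arrays held for 1772 liver, 1786 lung, 2162 kidney and 2007 WAT regions. The share of regions detected in at least 1 tissue lay between 63.9% (chromosome 3) and 81.9% (chromosome 14).

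**Figure D1:**
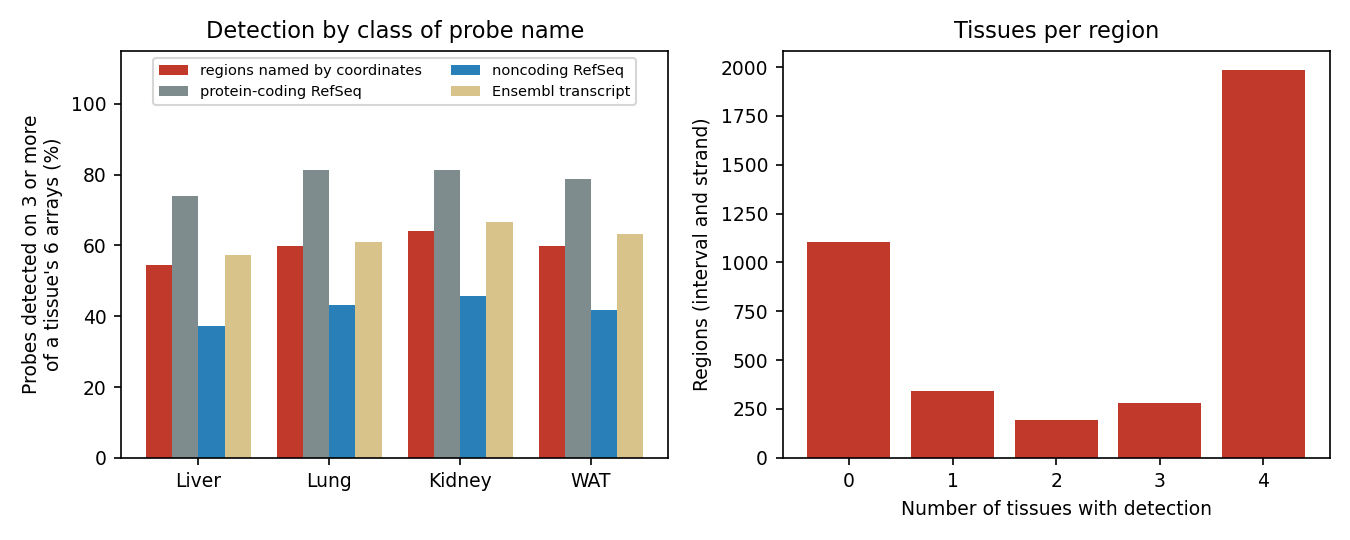
Left, percentage of probes detected (y axis), for each tissue and class of probe name; right, number of regions by the number of tissues in which they were detected. Region probes lie between the noncoding and the protein-coding RefSeq probes in every tissue, and the bars at 0 tissues (1103 regions) and 4 tissues (1984 regions) hold most regions.

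Few regions were restricted to a single tissue. Detection in only 1 tissue was seen for 51 liver, 78 lung, 152 kidney and 63 WAT regions. It was not counted for the other classes of probes, so that these numbers are a description. With the stricter requirement of detection on all 6 arrays of the tissue and on none of the 18 others, 6, 8, 19 and 2 regions remained. The one with the highest signal in the lung was chr9:81536195-81538236_F, with levels of 0.10, 0.02 and -0.43 in young lungs and -0.77, -0.25 and -0.13 in aged lungs. In the other tissues its level lay between -7.88 and -6.05 on every array, none of them well above background.

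In the kidney the first such region by signal was chr10:116401772-116404452_F, whose levels were -0.94, -1.14 and -0.99 in young and -3.21, -3.14 and -2.81 in aged kidneys. The second was chr8:19678750-20038750_R, with -1.5, -1.35 and -1.27 in young and -4.04, -3.53 and -3.11 in aged kidneys. Both of these kidney regions were therefore lower in every aged kidney than in every young kidney, with log2 changes of -2.03 (standard error, SE, 0.13, adjusted p = 0.000125) and -2.18 (SE 0.23, adjusted p = 0.000585). The third, chr14:43929100-43945100_F, went the other way, from -3.61, -4.10 and -3.82 to -2.11, -2.47 and -2.29, a log2 change of 1.55 (SE 0.16, adjusted p = 0.000496). These p-values, like all those below for age, come from limma within the tissue with Benjamini-Hochberg adjustment over all targets tested there, and a target was called at an adjusted p under 0.05. In the liver, the first by signal was chr17:17492400-17507525_R, at -2.03, -1.85 and -2.15 in young and -3.63, -2.89 and -2.81 in aged livers, a log2 change of -1.10 (SE 0.25, adjusted p = 0.0218). In bulk tissue, fewer cells of a type and less RNA per cell cannot be told apart.

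The tissues were compared at 10W in a fit of all 24 arrays, over 1983 regions whose probe passed the detection filter in all 4 tissues, so that no region entered through the tissue where it is high. A region counted as standing out when its mean level was at least 4-fold above that of every other tissue. This held for 54 regions in the liver (2.72%, against 3.1% of all 25773 targets), 24 in the lung (1.21% against 2.24%), 8 in the kidney (0.403% against 1.39%) and 8 in WAT (0.403% against 1.06%). Of these, 28, 19, 2 and 2 were also 4-fold above every other tissue at 90W. With scaling to the spike-in control spots in place of the 75th percentile, the numbers became 26 in the liver and 57 in the lung, and 11 and 7 in the kidney and WAT.

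The region that stood out most was chr10:81069014-81083448_F in the lung. Its levels were 3.46, 3.6 and 3.56 in young and 2.45, 3.44 and 3.54 in aged lungs, and between -4.87 and -3.50 on every other array of either age. The young lungs exceeded the mean of the other young tissues by 7.69 on the log2 scale (SE 0.19, adjusted p = 1.82e-15). The next in the lung was chr16:11008534-11013759_F, with 4.87, 4.92 and 5.31 in young lungs against -1.16 to -0.25 in the other young tissues, a difference of 5.69 (SE 0.09, adjusted p = 2.09e-18). In both cases the lung arrays did not overlap those of any other tissue.

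In the liver, chr1:71939741-71947891_F led with levels of 0.75, 0.92 and 0.91 in young livers, and between -5.51 and -4.33 in the other young tissues (difference 5.76, SE 0.33, adjusted p = 1.77e-11). The region chr6:40693617-40720167_F was high in liver and kidney, with 3.65, 3.61 and 3.77 in young livers, 2.76, 2.82 and 2.88 in young kidneys, -4.38 to -4.15 in young lungs and -2.88 to -1.90 in young WAT. In the kidney, chr14:118774481-118873242_R led with 2.57, 2.69 and 2.81 in young kidneys (difference 4.47, SE 0.17, adjusted p = 1.85e-13), and aged kidneys had 0.87, 1.34 and 1.64, each below every young kidney. In WAT, chr19:33049479-33054553_R led with -0.57, 1.1 and 1.56 in young WAT, where array 1 was the lowest (difference 4.86, SE 0.36, adjusted p = 2.06e-09). Its aged WAT levels were -0.99, 0.28 and -1.08, which overlap the young ones.

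Smaller differences between tissues were widespread, and in liver, lung and kidney the more frequent direction depended on the scaling. In WAT more regions were lower under both scalings. With the 75th percentile, 1278 of the 1983 regions were higher in young liver than in the mean of the other young tissues (64.4%, against 46.1% of all targets) and 206 were lower (10.4% against 26%). With spike-in scaling these became 411 and 572. In the lung 259 were higher (13.1% against 25.1%) and 967 lower (48.8% against 44.1%), which spike-in scaling turned to 1302 and 118. In the kidney 531 were higher (26.8% against 29.7%) and 441 lower (22.2% against 27.3%), and 303 and 536 with spike-in scaling. In WAT 245 were higher (12.4% against 26.1%) and 1050 lower (52.9% against 34.2%), and 145 and 1139 with spike-in scaling. At 90W, 898 were higher and 274 lower in the liver (45.3% and 13.8%, against 38.8% and 25.1% of all targets), 407 and 633 in the lung (20.5% and 31.9% against 21.5% and 37.4%), 307 and 607 in the kidney (15.5% and 30.6% against 20% and 28.6%) and 285 and 584 in WAT (14.4% and 29.4% against 27.3% and 22.1%).

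Of the regions described for their high signal at 10W, chr14:78924115-78938125_F and chr17:17481706-17482457_R were taken in every tissue. The latter had levels of 8.59, 8.55 and 8.55 in young and 7.62, 7.67 and 7.95 in aged livers, a log2 change of -0.82 (SE 0.16, adjusted p = 0.0140). In the kidney it went from 7.82, 7.94 and 7.99 to 7.0, 7.10 and 7.17, a change of -0.83 (SE 0.09, adjusted p = 0.000593), and in lung and WAT its ages overlapped. The first by signal in the young liver was chr1:193875525-193978800_R, with 9.44, 9.92 and 9.95 in young and 7.59, 7.41 and 8.83 in aged livers (change -1.83, SE 0.38, adjusted p = 0.0176).

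In aged liver and kidney, more regions were lower than higher. In the liver 667 of 2182 tested regions were lower (30.6%, against 17% of all 27903 targets) and 67 were higher (3.07% against 10.5%). In the kidney 1293 of 2555 were lower (50.6%, against 42.6% of all 31503 targets) and 226 higher (8.85% against 20.6%). In the lung 46 of 2390 were lower (1.92% against 2.89%) and 31 higher (1.30% against 2.72%), and in WAT 13 of 2379 were lower (0.546% against 0.579%) and 17 higher (0.715% against 2.01%). The median log2 change of the regions was -0.52 in the liver, -0.42 in the kidney, and -0.07 in both lung and WAT, where that of all targets was -0.20 in liver, -0.23 in kidney, -0.08 in lung and -0.05 in WAT.

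Counted without a fit, 1111 liver regions had every aged array below every young array (50.9%, against 33.1% of all targets) and 120 had every aged array above (5.5% against 16.8%). The kidney had 1410 below (55.2% against 47.6%) and 266 above (10.4% against 23.1%), the lung 474 below (19.8% against 24.2%) and 190 above (7.95% against 11.6%), and WAT 340 below (14.3% against 15%) and 253 above (10.6% against 13.7%).

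The scaling changed the liver and kidney counts. With spike-in scaling, 104 regions were lower and 62 higher in the liver, and 312 were lower and 396 higher in the kidney, so that the majority turned in the kidney. The median change under spike-in scaling was -0.41 for regions and -0.09 for all targets in the liver, and -0.03 and 0.15 in the kidney. A change of scaling moves every target of an array alike, so the regions lay below all targets by the same amount under both. The second scaling is therefore no further test of that gap. The liver counts also varied with the mice: leaving out young liver 2 left 28 higher and 151 lower, and leaving out young liver 1 left 42 and 175. In the lung limma called no region without young lung 1 (88 higher and 227 lower at an unadjusted p under 0.05) or without young lung 2 (104 and 224), and 3 higher and 2 lower without young lung 3. Without the aged lung array 1, whose detection was low, 25 were higher and 46 lower. In WAT, leaving out a mouse left 5 to 13 higher and 0 to 4 lower, with 13 and 4 without young WAT array 1, which had the low correlations, and limma called none lower without young WAT 2 or 3 (160 and 119 lower at an unadjusted p under 0.05). Markers of other cell types also differed between the lung groups. The red blood cell markers had sums of 39.4 to 216 times the 75th percentile in young and 468 to 740 in aged lungs (1 of 3 called higher). The white fat markers had 38.3 to 65.7 in young and 7.97 to 25.7 in aged lungs (3 of 6 called lower), and the heart muscle markers 73.2 to 218 and 14 to 149 (limma called 0 of 5, with 1 lower at an unadjusted p under 0.05). The part of these markers in the lung counts was not tested.

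The lower position of the regions can be read inside each array, where the scaling cancels. Over 1523 regions and 13363 protein-coding targets whose probe was well above background on all 24 arrays, the median level of the regions minus that of the protein-coding targets was -2.12, -2.33 and -2.41 in young and -2.81, -2.89 and -2.95 in aged livers. In the kidney it was -2.86, -2.92 and -2.88 in young and -3.30, -3.33 and -3.18 in aged mice. In both tissues every aged array lay below every young array. In the lung the values were -3.26, -3.26 and -3.30 in young and -3.30, -3.21 and -3.32 in aged mice, and in WAT -3.13, -3.46 and -3.31 and -3.42, -3.48 and -3.32, so that the ages overlapped. The 1101 noncoding RefSeq targets that passed the same filter behaved alike: their gap to the protein-coding targets was -2.31 to -2.54 in young and -2.85 to -2.98 in aged livers, and -2.68 to -2.73 in young and -2.99 to -3.14 in aged kidneys. The downward shift is therefore not particular to regions named by coordinates. The 75th percentile itself was 259 to 307 units in young and 340 to 448 in aged livers, and 460 to 618 and 788 to 862 in kidneys. In the lung it was 844 to 914 in young and 560 to 956 in aged mice, and in WAT 763 to 819 and 695 to 780. The part of the arrays' overall signal in the shift was not tested.

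**Figure D2:**
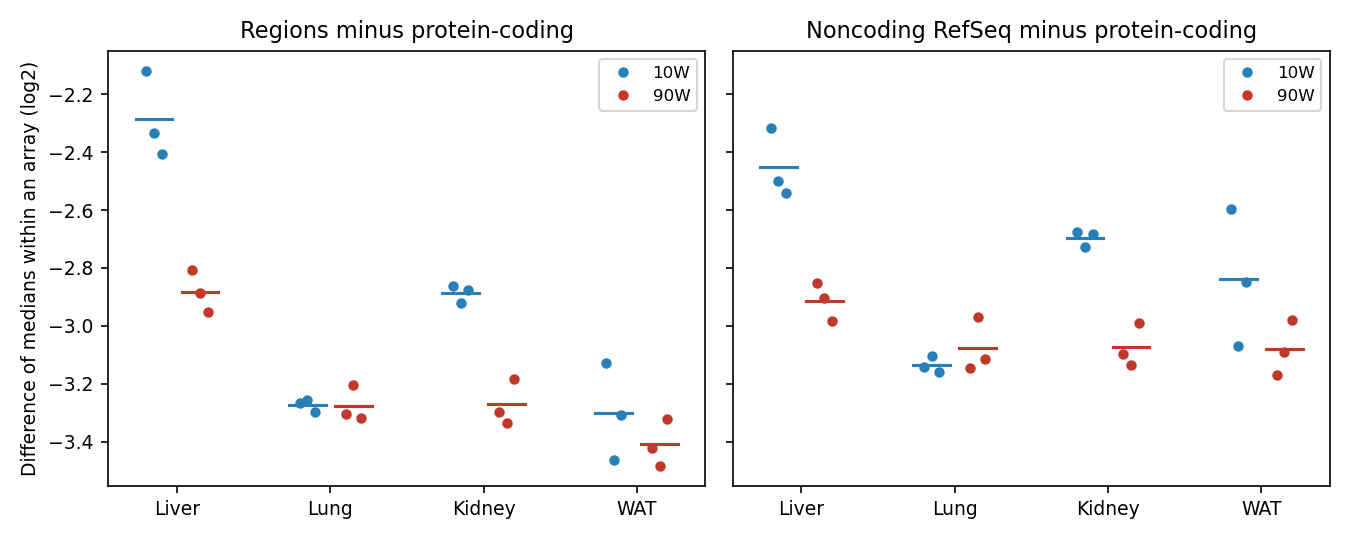
Median log2 level of regions (left) or noncoding RefSeq targets (right) minus the median of protein-coding targets within each array (y axis, log2), by tissue and age; points are arrays and lines are means of 3. Aged liver and kidney arrays lie below the young ones in both panels, and lung and WAT arrays overlap.

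The shift was present at every brightness. Targets of a tissue were split into 4 bands of equal size by mean level, and regions had a median log2 change of -0.49, -0.55, -0.52 and -0.49 from the dimmest to the brightest band in the liver, where protein-coding targets had -0.23, -0.06, -0.03 and -0.23. In the kidney regions had -0.36, -0.46, -0.43 and -0.45, and protein-coding targets -0.13, -0.03, -0.09 and -0.39. In each liver and kidney band the median change of the regions was below that of the protein-coding targets. In the lung and WAT the median of the regions in a band lay between -0.16 and 0.08.

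The fits of liver and kidney share no arrays. Among 2094 regions tested in both, 501 were lower in both, which is 77.2% of the 649 lower in the liver and 44.0% of the 1138 lower in the kidney. Over all targets the shares were 76.3% and 28.7%, so that the share of the liver's lower regions was close to that of all targets. For higher regions the overlap was 46, or 71.9% of the liver's 64 and 28.9% of the kidney's 159, beside 71.8% and 38.8% over all targets. In opposite directions, 2 regions were lower in the liver and higher in the kidney, and 3 the reverse. The difference in the age change between a tissue and the mean of the others was tested directly for the 1983 regions. It was called lower for 351 in the liver (17.7%, against 8.14% of all targets) and for 250 in the kidney (12.6% against 14.6%), and higher for 234 in the lung (11.8% against 7.2%) and for 250 in WAT (12.6% against 9.55%). In the other direction it was called for 33 in the liver (1.66% against 5.59%), 53 in the kidney (2.67% against 7.61%), 21 in the lung (1.06% against 5.36%) and 31 in WAT (1.56% against 4.5%). Spike-in scaling reduced the first 4 numbers to 87, 9, 7 and 32.

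A small group of regions on chromosome 1 was higher in aged mice in 3 or 4 tissues. Among 2263 regions tested in at least 3 tissues, 16 were called higher in 3 or more (0.707%, against 2.28% of all targets) and 9 lower (0.398% against 0.452%), and 6 of the 16 lie in the same 2.5 Mb. The 2 regions called higher in all 4 tissues, chr1:85036677-85038530_R and chr1:85304494-85305390_R, are among them. This stretch was singled out after its values were seen. It holds 15 regions of the array. Of those tested, 7 of 12 were higher in the liver, 7 of 10 in the lung, 7 of 10 in the kidney and 5 of 12 in WAT, where 10.5%, 2.72%, 20.6% and 2.01% of all targets were higher. The liver had 1 lower region and the kidney 2. As the stretch was chosen for these calls, its counts are a description.

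For chr1:85036677-85038530_R, an interval of 1854 bases, the levels were -2.07, -2.73 and -2.08 in young and 0.25, 0.23 and 0.37 in aged livers. They were -2.05, -2.30 and -2.10 in young and -0.21, -0.64 and 0.00 in aged lungs. In young kidneys they were -3.56, -3.55 and -4.10, and in aged kidneys -0.83, -1.09 and -1.24. In WAT they went from -3.63, -1.99 and -2.11 to 2.20, 2.90 and 1.24. Young and aged arrays did not overlap in any tissue. The log2 changes were 2.58 in the liver (SE 0.22, adjusted p = 0.00159), 1.87 in the lung (SE 0.18, adjusted p = 0.0117), 2.68 in the kidney (SE 0.19, adjusted p = 0.000170) and 4.69 in WAT (SE 0.59, adjusted p = 0.0202). The WAT change exceeded the mean change of the other tissues by 2.31 (SE 0.44, adjusted p = 0.00239). Here and below, such a difference was tested on the same arrays that singled out the region for its change. The lung call was lost without young lung 1, 2 or 3 (adjusted p = 0.0666, 0.0637 and 0.0512), and the WAT call without young WAT 2 or 3 or aged WAT 1 or 2 (adjusted p = 0.0575, 0.0621, 0.0858 and 0.0555), with changes that then lay at 1.80 to 1.92 and at 4.30 to 4.98.

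The interval chr1:85117750-85129200, 81.1 kb further along, was higher on both strands. On the F strand (chr1:85117750-85129200_F) no young liver was well above background, at -5.11, -6.31 and -4.50, whereas aged livers had -0.57, -0.21 and -0.31, at least 19.1-fold higher (adjusted p = 0.00166). Here and wherever an age change is given as at least some fold, no array of the dimmer group was well above background, so that the region entered the test only through the group where it was higher, and its p-value also rests on signals below the limit of detection. Young kidneys were likewise not well above background, at -5.47, -5.96 and -5.93, and aged kidneys had -0.79, -0.85 and -1.12, at least 21.8-fold higher (adjusted p = 2.25e-05). In the lung the F strand went from -1.77, -2.31 and -3.36 to 0.84, 0.93 and 1.29 (log2 change 3.50, SE 0.40, adjusted p = 0.0148), and the call was lost without young lung 1 or 2 (adjusted p = 0.0608 and 0.0738). In WAT it went from -1.01, -4.03 and -3.86 to 1.23, 1.18 and 1.81, a change of 4.37 that was not called (SE 0.82, adjusted p = 0.0568), although the ages did not overlap. Young WAT array 1 was the highest of the young arrays, and without it the change was 5.35 (adjusted p = 0.00658). On the R strand (chr1:85117750-85129200_R), aged WAT had -2.99, -3.13 and -2.34 where young WAT was not well above background, at least 7.02-fold higher (adjusted p = 0.00236), and aged livers exceeded the young ones at least 3.93-fold (adjusted p = 0.00517). In the kidney the bound for the R strand was 1.17-fold, and the call (adjusted p = 0.000128) was lost with normexp background correction (change 0.03, adjusted p = 0.859).

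The region chr1:85304494-85305390_R, an interval of 897 bases, had log2 changes of 2.86 in the liver (SE 0.22, adjusted p = 0.00149), 1.11 in the lung (SE 0.18, adjusted p = 0.0297), 1.98 in the kidney (SE 0.10, adjusted p = 5.29e-05) and 3.97 in WAT (SE 0.22, adjusted p = 0.00286). In WAT its levels went from -4.11, -3.75 and -4.15 to -0.36, 0.15 and 0.11. The lung call was lost when any lung but the aged lung 2 was left out (adjusted p = 0.0544 to 0.115), and with spike-in scaling (adjusted p = 0.0638). The brighter of its 2 probes was tested in each tissue, and the liver was read by a different probe from lung, kidney and WAT. The probe tested in the liver changed by 5.27, 3.86 and 5.82 in lung, kidney and WAT, where it was well above background on 3, 4 and 4 arrays. The probe tested in those tissues changed by 1.66 in the liver, where it was well above background on 6 arrays.

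At a distance of 2306.9 kb from the first region, chr1:87343550-87362900_F went from -1.37, -1.99 and -2.79 in young to 1.25, 1.39 and 1.72 in aged lungs (log2 change 3.50, SE 0.36, adjusted p = 0.0128). In the kidney it went from -4.64, -4.66 and -4.59 to -0.43, -0.36 and -0.72 (change 4.12, SE 0.11, adjusted p = 1.42e-05), and in the liver the change was 4.70 (SE 0.35, adjusted p = 0.00148). The size of the liver change rests partly on signals below detection. Young livers 1 and 2, at -4.90 and -5.33, lay below the lowest level called well above background on their arrays, -4.58 and -4.77. In WAT the change was 4.39 (SE 0.79, adjusted p = 0.0515), and 5.34 without young WAT array 1 (adjusted p = 0.00639). The lung call was lost without young lung 1 or 2 (adjusted p = 0.0594 and 0.0682). Over the 24 arrays its profile followed that of chr1:85117750-85129200_F with a Pearson correlation of 0.996, given as a description. A second probe of each of these intervals on the F strand was dim: that of chr1:87343550-87362900_F was well above background on none of the 24 arrays. It changed by -0.216, 1.457, -0.264 and 1.225 in liver, lung, kidney and WAT. The second probe of chr1:85117750-85129200_F changed by 0.873, 1.937, 0.092 and 2.232, and was well above background on 0, 2, 0 and 3 arrays. Whether the brighter probes of these regions read a shared stretch was not tested.

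The other tested regions of the stretch varied. In the nearer part, chr1:85300475-85331475_R was higher in WAT by 3.52 (adjusted p = 0.00489) and in the lung by 0.92 (adjusted p = 0.0384), and chr1:85156338-85167730_R in the lung by 0.77 (adjusted p = 0.0247). In contrast, chr1:85150625-85185800_F was lower in the kidney (change -0.63, SE 0.12, adjusted p = 0.00450) and not called in the other tissues. Further along, chr1:85323303-85337483_F had a liver change of -1.24 (adjusted p = 0.0428) and a kidney change of -0.46 (adjusted p = 0.00192). In the farther part, chr1:87348082-87409907_F had called changes of 1.58 in liver (adjusted p = 0.0111) and 1.20 in kidney (adjusted p = 0.000682), and chr1:87343550-87362900_R one of 0.81 in lung (adjusted p = 0.0368). At the far end, chr1:87419050-87452625_F was higher in the liver, kidney and WAT, with changes of 0.99, 1.76 and 2.59 (adjusted p = 0.0149, 0.00232 and 0.0344). Higher regions thus lay beside lower and uncalled ones. These neighbours lie outside the rule for naming regions and were picked after their values were seen, to complete the stretch.

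**Figure D3:**
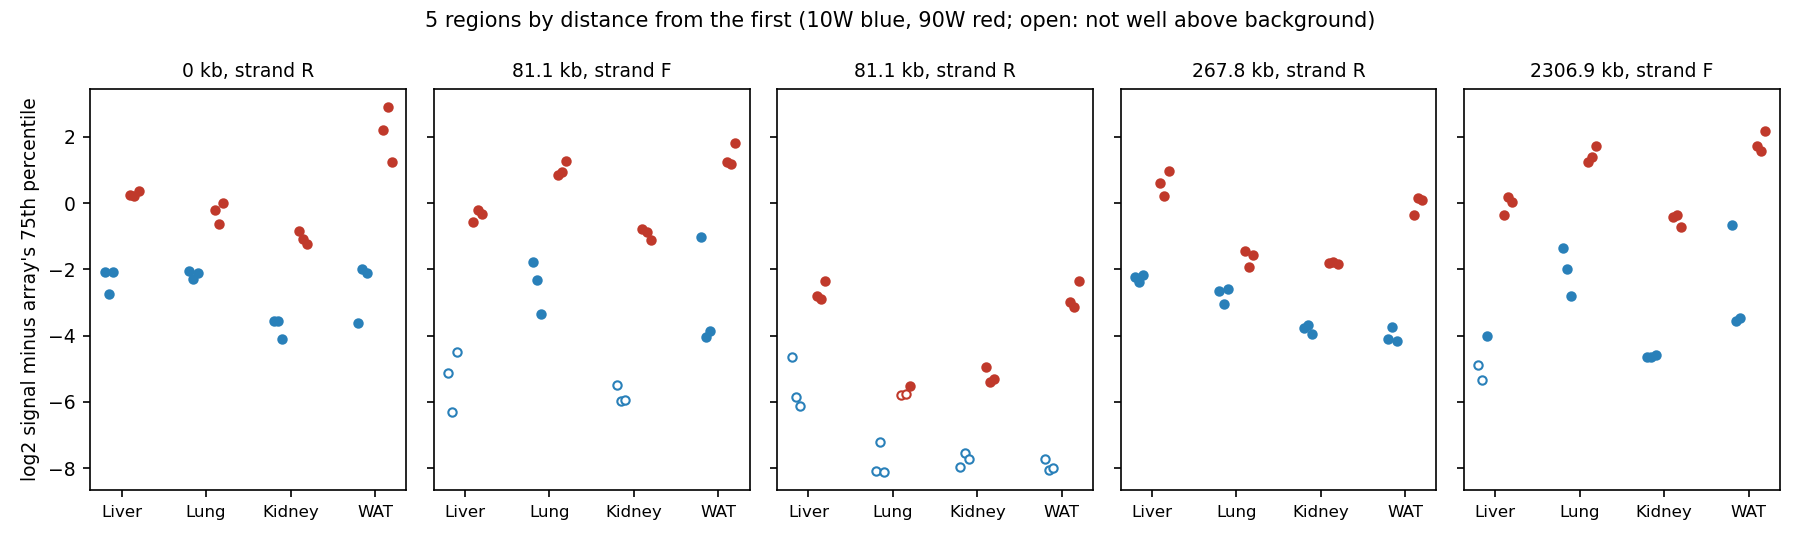
Log2 level (y axis) on every array of 5 of the regions on chromosome 1, each panel named by the distance of its start from the start of the first region and by strand; blue points are 10W and red points 90W arrays, and open points were not well above background. In every tissue shown all aged arrays lie above all young arrays of the same region.

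**Figure D4:**
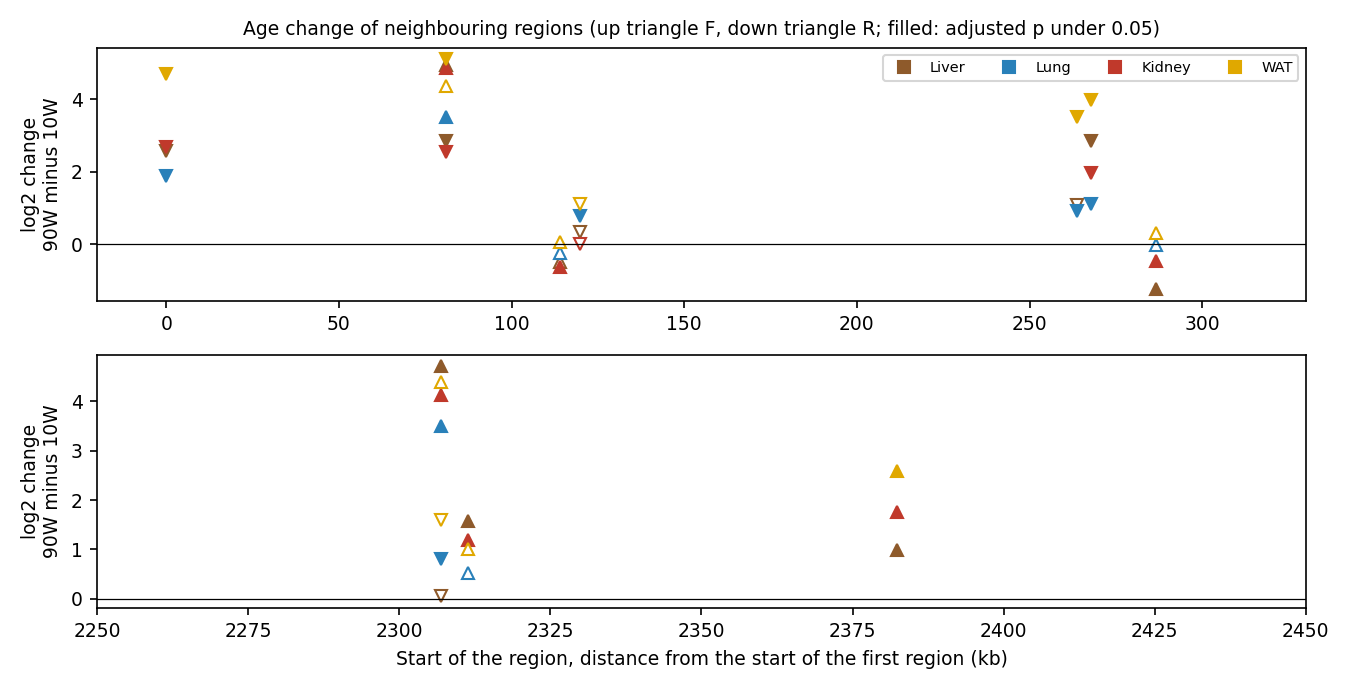
Log2 change from 10W to 90W (y axis) of the tested regions in the stretch against the distance of their start from that of the first region (x axis, kb; the empty middle is left out); colours are tissues, triangles point up for F and down for R, and filled symbols have an adjusted p under 0.05. Changes above 3 are seen at 0 kb in WAT, at 81.1 and 2306.9 kb on the F strand in all 4 tissues and at 81.1 kb on the R strand in WAT, and at 263.8 and 267.8 kb in WAT, while the regions at 113.9 and 286.6 kb have no called rise.

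Markers of immune cells moved with age as well. Of 6 markers of B and plasma cells, the liver had 3 called higher and kidney and WAT all 6, and their summed signal went from 0.800 to 1.07 times the 75th percentile in young to 49.0 to 82.6 in aged kidneys, and from 0.759 to 3.24 to 42.5 to 63.4 in WAT. In the lung it was 9.26 to 17.3 in young and 5.98 to 96.3 in aged mice. Of 5 macrophage markers, 5, 5 and 2 were higher in liver, kidney and WAT, with sums of 20.5 to 23.4 in young and 65.3 to 95.0 in aged kidneys. Of 5 T cell markers, 2, 3, 4 and 3 were higher in liver, lung, kidney and WAT, with lung sums of 8.95 to 9.85 in young and 16.5 to 23.8 in aged mice. In the kidney the fifth, Cd4, was lower by a change of -0.50 (adjusted p = 0.00996), and in the liver the median change of the list was -0.24, with sums of 42.8 to 60.1 in young and 37.8 to 40.1 in aged mice. In the lung, limma called none of the B cell, plasma cell and macrophage markers (1 of each list higher at an unadjusted p under 0.05). The part of these cells in the higher regions was not tested.

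Regions elsewhere were called higher in 1 to 3 tissues. The region chr17:29378878-29379589_F had the largest fitted rise of any region called in WAT, from -4.05, -3.80 and -2.79 to 1.47, 2.32 and 2.54, a log2 change of 5.66 (SE 0.43, adjusted p = 0.00483). In the kidney it went from -2.42, -2.47 and -2.60 to 2.27, 1.89 and 1.36 (change 4.34, SE 0.23, adjusted p = 6.48e-05). In the liver it rose by 1.81 (SE 0.47, adjusted p = 0.0311), a call lost without young liver 1, 2 or 3 or aged liver 4 (adjusted p = 0.0569 to 0.0967). In the lung the aged arrays were split, at 2.89, 0.50 and 3.58 against 0.49, 0.50 and 0.53 in young lungs (adjusted p = 0.196), and without the aged lung 2 the change was 2.72 (adjusted p = 0.00827).

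The largest fitted rise in the kidney was that of chr9:89167172-89168980_F, from -1.02, -1.04 and -1.11 in young to 4.71, 3.48 and 3.74 in aged kidneys, a log2 change of 5.04 (SE 0.31, adjusted p = 0.000107). Regions given only as a bound cannot be ranked against chr9:89167172-89168980_F. In WAT it went from -1.31, -1.69 and -1.66 to 0.55, 0.63 and 2.88, which was not called (change 2.91, SE 0.64, adjusted p = 0.0811), and in the liver the ages overlapped. The kidney change exceeded the mean of the other tissues by 3.57 (SE 0.58, adjusted p = 0.000370). In no young kidney was chr8:83210957-83219451_F well above background, and it had -2.13, -2.73 and -2.90 in aged kidneys, at least 7.21-fold higher (adjusted p = 0.000479), and no WAT array of either age was well above background.

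On chromosome 10, chr10:96098058-96098623_F rose in the kidney by 1.60 (adjusted p = 0.000518), in the lung by 1.75 (adjusted p = 0.0384) and in the liver by 1.61 (adjusted p = 0.0456). The liver call was lost when any mouse but the aged liver 1 was left out (adjusted p = 0.0642 to 0.126) and with normexp (adjusted p = 0.131). The lung call was lost without any of the 6 lungs (adjusted p = 0.0586 to 0.148) and with spike-in scaling (adjusted p = 0.0539). Its neighbour chr10:96103732-96103867_F was higher in the lung by 2.34 (SE 0.32, adjusted p = 0.0206; lost without any of the young lungs) and in the kidney by 1.96 (SE 0.40, adjusted p = 0.00639). In WAT, chr9:65368908-65377592_R went from -6.13, -4.67 and -4.49 to -0.08, -1.65 and -1.61 (change 3.98, SE 0.61, adjusted p = 0.0342), a call lost when any mouse was left out (adjusted p = 0.0510 to 0.0910).

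Among the regions that fell, the liver had the largest changes. The region chr19:36699712-36763966_R went from 1.92, 2.29 and 2.05 in young to -1.69, -3.59 and -1.37 in aged livers, a log2 change of -4.30 (SE 0.55, adjusted p = 0.00417). It was much dimmer in the lung, where the change was -0.21 (adjusted p = 0.548), and the WAT change of -1.80 did not pass (adjusted p = 0.159). The region chr4:35106125-35127700_R fell in the liver from -1.14, -1.5 and -2.20 to -5.71, -6.17 and -4.78, with 1 aged array well above background (change -3.94, SE 0.41, adjusted p = 0.00259).

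The region chr12:81221532-81232030_F went from -0.53, -1.25 and -1.31 to -5.03, -3.92 and -5.36 in the liver (change -3.74, SE 0.40, adjusted p = 0.00273), and changed by 0.10, -0.27 and -0.34 in lung, kidney and WAT without a call. Its liver change was below the mean of the other tissues by -3.57 (SE 0.37, adjusted p = 1.18e-05). Aged livers 1 and 4 lay below the lowest level called well above background on their arrays, -4.91 and -5.03. The sizes of this fall and of this difference therefore rest partly on signals below detection. The region chr8:49866197-49866841_R went from -0.28, 0.25 and 0.29 to -3.24, -3.82 and -2.32 in the liver (change -3.21, SE 0.38, adjusted p = 0.00347), and the difference from the other tissues was -2.88 (SE 0.31, adjusted p = 1.77e-05). The fifth, chr17:6495982-6514626_R, had aged levels of -6.13, -6.99 and -3.40 against -2.13, -2.07 and -2.05, and its change of -3.42 (adjusted p = 0.0265) was no longer called without young liver 1, 2 or 3 or aged liver 1 (adjusted p = 0.0633 to 0.0796). For this region aged livers 1 and 2 lay below the lowest level called well above background on their arrays, -4.91 and -4.97.

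In the kidney the largest fitted falls were smaller than those named in the liver, and close to each other in size. The region chr1:78591605-78606083_R went from -0.63, -0.38 and -0.62 to -3.52, -3.79 and -2.68 (change -2.78, SE 0.29, adjusted p = 0.000518), while young and aged livers overlapped. The regions chr2:108456668-108532418_R and chr11:87841800-87858725_F fell by 2.65 and 2.60 (adjusted p = 0.000184 and 0.000164). In young WAT these last regions had levels of -0.41, -6.18 and -3.10 and of -0.29, -5.31 and -2.52, a spread of more than 5 between mice of a group. The region chr11:97457180-97487074_F was not well above background in any aged kidney and was at least 3.775-fold lower (adjusted p = 0.00131), and chr3:36280098-36347798_F fell by 2.58 (adjusted p = 0.00101).

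In the lung, chr16:8738782-8830148_F went from 2.40, 2.54 and 2.10 to 0.11, 0.12 and 0.68 (change -2.04, SE 0.20, adjusted p = 0.0118). It was also lower in the liver, from 3.51, 3.41 and 3.25 to 2.43, 2.05 and 2.52 (change -1.06, SE 0.18, adjusted p = 0.0105), and in the kidney by a change of -0.23 (adjusted p = 0.0419). The lung change differed from the mean of the other tissues by -1.41 (SE 0.30, adjusted p = 0.00566). The lung call was lost without young lung 1 or 2 (adjusted p = 0.0730 and 0.0630). The next, chr2:94008913-94019798_R, was not well above background in any aged lung and was at least 1.30-fold lower (adjusted p = 0.0136), which was lost with normexp (change -0.18, adjusted p = 0.596) and without young lung 1, 2 or 3 (adjusted p = 0.0754, 0.0738 and 0.0517). Falls of -1.24, -1.16 and -0.99 were called for chr17:84350367-84351803_R, chr19:44653017-44654777_F and chr11:102991688-102992353_R (adjusted p = 0.0195, 0.0391 and 0.0421), all of them lost without young lung 1 (adjusted p = 0.0687, 0.0704 and 0.0981), 2 or 3. The last of these calls were also lost with normexp (adjusted p = 0.0725 for chr19:44653017-44654777_F and 0.203 for chr11:102991688-102992353_R).

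In WAT, chr6:52046805-52072744_F had -4.03, -3.94 and -3.59 in young mice and was not well above background in aged mice, at least 3.46-fold lower (adjusted p = 0.0394). It was also lower in the kidney, from -1.74, -1.59 and -1.84 to -2.90, -3.34 and -3.27 (change -1.45, SE 0.14, adjusted p = 0.000451), and was well above background on no liver or lung array. The region chr8:126268510-126290810_F went from 2.07, 2.30 and 2.78 to -0.18, 0.91 and 0.36 in WAT (change -2.02, SE 0.34, adjusted p = 0.0424). The regions chr13:114111261-114117957_F and chr2:75444518-75497268_R were at least 2.66-fold and 2.65-fold lower in aged WAT (adjusted p = 0.0239 and 0.0425). The region chr4:89088538-89130181_F was lower in liver, kidney and WAT, by changes of -1.24, -1.07 and -1.56 (adjusted p = 0.0151, 0.000947 and 0.0359). Each of these 5 WAT calls was lost when any of at least 4 of the 6 mice was left out (adjusted p = 0.0631 to 0.149), and 4 were also lost with normexp (adjusted p = 0.0814, 0.288, 0.346 and 0.142 for those on chromosomes 6, 13, 2 and 4). That of chr8:126268510-126290810_F was lost with spike-in scaling (adjusted p = 0.0530).

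The strands of an interval were read by separate probes, whose changes correlated weakly. Of 812 intervals with both strands on the array, both were detected for 330, 379, 422 and 377 in liver, lung, kidney and WAT, the F strand alone for 170, 149, 141 and 142, the R strand alone for 187, 178, 159 and 184, and neither for 125, 106, 90 and 109. Where both were detected, the log2 change with age correlated between strands with a Pearson r of 0.17, 0.09, 0.16 and 0.36 in liver, lung, kidney and WAT, across intervals that share the same arrays. Probes of the same strand and interval gave 0.59, 0.58, 0.69 and 0.82 over 128 to 163 regions with several detected probes, of which 64.8% to 76.6% moved with the same sign. In the kidney 132 intervals were called lower on both strands, 8 higher on both and 35 in opposite directions. The liver numbers were 32, 2 and 5 and the lung numbers 0, 1 and 0, while no WAT interval was called on both strands. Most called regions were lower in any case, 1293 of 1519 in the kidney and 667 of 734 in the liver. These counts therefore do not tell whether strands of an interval move together.

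Among the intervals called in opposite directions in the kidney, the strands differed most in chr8:93337794-93348869. Its R strand, chr8:93337794-93348869_R, went from -2.91, -2.86 and -2.94 to 1.05, 0.65 and 0.06 (change 3.49, SE 0.24, adjusted p = 0.000161), and its F strand, chr8:93337794-93348869_F, from -4.18, -4.22 and -3.92 to -4.51, -4.64 and -4.34 (change -0.39, SE 0.12, adjusted p = 0.0320), a call not kept with spike-in scaling (adjusted p = 0.994) or without young kidney 1 or 3 or aged kidney 1 or 2 (adjusted p = 0.0523 to 0.103). The R strand was also among those that stood out in the lung, with 3.21, 3.13 and 2.76 in young lungs. The next, chr17:6265275-6362150, was at least 2.18-fold higher on the R strand (adjusted p = 0.000303), a call not kept with normexp (change -0.039, adjusted p = 0.805), and lower by a change of -0.85 on the F strand (adjusted p = 0.000782). The interval chr1:71730016-71740391 was at least 2.88-fold higher on R (adjusted p = 0.00392; 0.19 with normexp, where the change was 0.15) and lower by -0.92 on F (adjusted p = 0.00439).

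The interval chr17:95150800-95180650 showed opposite changes in liver and kidney alike. Its F strand, chr17:95150800-95180650_F, went from -3.14, -2.71 and -2.97 to -0.96, -0.28 and -1.47 in the liver (change 2.03, SE 0.31, adjusted p = 0.00722) and from -3.70, -3.45 and -3.31 to -0.96, -1.03 and -1.23 in the kidney (change 2.41, SE 0.13, adjusted p = 7.39e-05). Its R strand, chr17:95150800-95180650_R, fell by 0.74 in the liver (adjusted p = 0.0243; 0.267 with spike-in scaling and 0.0549 to 0.0818 without young liver 1, 2 or 3) and by 0.54 in the kidney (adjusted p = 0.00248). In the liver chr11:16831925-16851121 was at least 2.21-fold higher on R (adjusted p = 0.0162) and lower by -1.16 on F (adjusted p = 0.00801). Its R call was lost with normexp (change 0.061, adjusted p = 0.719) and without young liver 1 or 2 (adjusted p = 0.0550 and 0.0573), and its F call with spike-in scaling (adjusted p = 0.0579). The interval chr8:91471819-91551119 was higher on R by 1.5 (adjusted p = 0.0306) and lower on F by -0.70 (adjusted p = 0.0339). Its R call was lost with normexp (change 0.17, adjusted p = 0.399) and without young liver 1 or 2 or aged liver 2 or 4 (adjusted p = 0.0604 to 0.0988). Its F call was lost with spike-in scaling (adjusted p = 0.322) and when any liver but the aged liver 4 was left out (adjusted p = 0.0613 to 0.0922). The interval chr11:16831925-16851121 was called in opposite directions in the kidney as well, with 1.42 on R (adjusted p = 0.00267) and -0.69 on F (adjusted p = 0.00433).

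**Figure D5:**
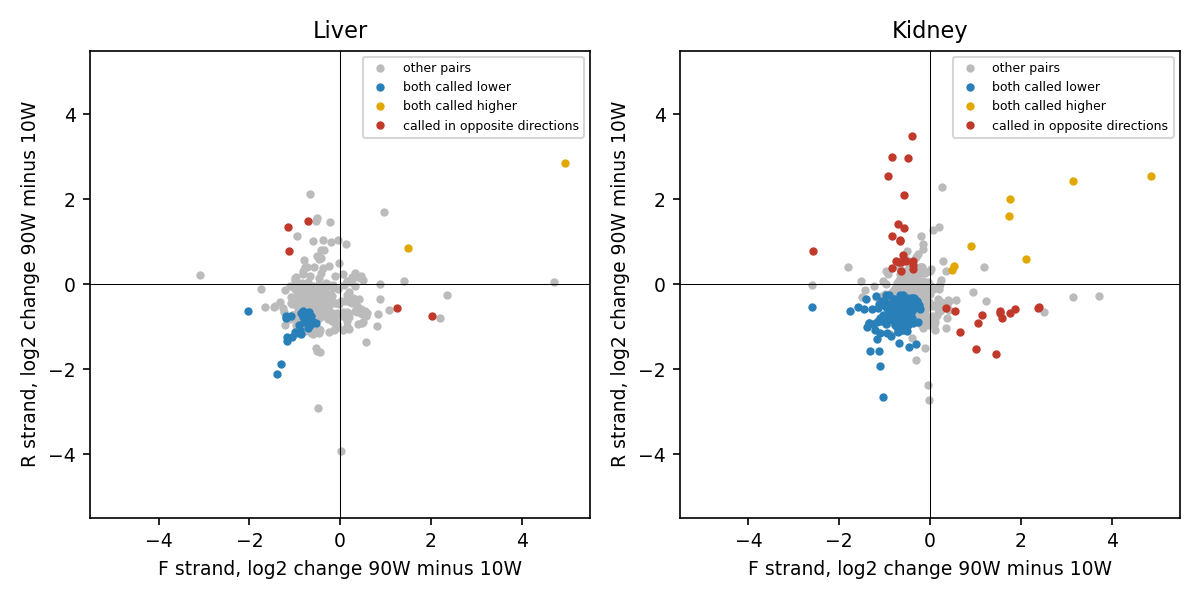
Log2 change from 10W to 90W of the F strand (x axis) and the R strand (y axis) for intervals with both strands detected in liver (330) and kidney (422); colours mark pairs called lower on both strands, higher on both, or in opposite directions. The kidney has 132 pairs in the lower left called on both strands and 35 called in opposite directions.

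Long noncoding RNAs that carry a gene name were read from a list of 42 genes, of which 30 were found on the array and 27 to 29 tested in a tissue. In the liver 3 of 27 were higher and 2 lower (11.1% and 7.41%, against 10.5% and 17% of all targets). The kidney had 6 of 29 higher and 8 lower (20.7% and 27.6% against 20.6% and 42.6%), and the lung 1 of 28 lower (3.57% against 2.89%). In WAT limma called 0 higher and 0 lower, with 5 and 4 at an unadjusted p under 0.05. Their median log2 change in liver, lung, kidney and WAT was 0.31, 0.01, -0.06 and 0.15, beside -0.52, -0.07, -0.42 and -0.07 for the regions. The list is short and was picked by name. Over all tested targets with a noncoding RefSeq accession the medians were -0.465, -0.124, -0.437 and -0.146. H19, a maternally expressed imprinted RNA abundant in fetal liver, was well above background in no young liver and at least 27.5-fold higher in aged livers (adjusted p = 0.0127). Dnm3os, which hosts microRNAs of the miR-199 and miR-214 families, rose in the kidney by 2.86 (SE 0.18, adjusted p = 0.000118), and Meg3, an imprinted RNA, by 0.90 (SE 0.24, adjusted p = 0.0169). Rian, which lies in the same imprinted domain as Meg3, fell in the lung by 0.87 (adjusted p = 0.0289). Meg3 changed by -1.09 in the lung and -1.72 in WAT, and Rian by -1.67 in WAT, without a call (adjusted p = 0.0810, 0.152 and 0.175). In the kidney no young mouse had Rian well above background, and aged mice were at least 1.08-fold higher, also without a call (adjusted p = 0.165). Terc, the RNA template of telomerase, was lower in the liver by a change of -1.02 (SE 0.29, adjusted p = 0.0421). Snhg5, a host gene of small nucleolar RNAs, rose in the kidney by 1.17 (adjusted p = 0.00246), and Airn, the antisense RNA of the Igf2r imprinted domain, fell by 0.75 (adjusted p = 0.00255).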

How the data were processed

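Total RNA of the 24 samples was labelled with Cy3 and hybridised to Agilent 1-colour arrays, and the authors deposited the scanner output of Feature Extraction 11.0.1.1, in which the processed signal is an intensity after background subtraction. The study's methods name a human array, whereas the deposited files carry a mouse design on build mm9. The deposited flag columns, which have no unit (other), gave background, outlier and control spots. From these, 1841 outlier spots were dropped, spots of a probe were averaged, log2 intensity was centred on the 75th percentile of the array, and the brightest probe stood for each target. Accessions were matched to symbols for 32994 of 56605 probes (58.3%, GRCm38.p6 table), and coordinates are those of the files. Ages were compared within each tissue, and tissues in 1 fit of 24 arrays, with limma 3.58.1 in R 4.3.3 and Benjamini-Hochberg adjustment over all targets, without batch terms. The code was tested on simulated data, in which 100 targets per tissue changed by 1 and 100 by 2 on the log2 scale. The age fit recovered 18, 49, 64 and 0 of the changes of 1 in liver, lung, kidney and WAT. It recovered 66, 81, 87 and 31 of the changes of 2. The fits thus differed between tissues in how many changes they found. Few targets changed in the simulation, so these shares do not carry over to the data. A p-value covers the spread between the mice of a group.

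The regions and gene lists were chosen with earlier results of these data known. By rule, the text names up to 5 regions with the largest called change per tissue and direction, 3 brightest, 4 by tissue difference, 3 detected in a single tissue, 3 opposite strand pairs and 8 called in 3 or more tissues. Regions of chromosome 18 are not named, and 175 region probes on X or with no strand letter were left out. A group not well above background on any array has a bound ("at least"), taken from the lowest signal well above background of each array. The alternatives tried were normexp background correction with an offset of 50 on median signals, quantile, spike-in and median scaling, other detection filters, the mean of a target's probes, 1 fit of all arrays, a replicate block, the methods' t-test, the tissue comparison at 90W and leaving out each mouse.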

Additional observations from a re-analysis of the deposited data

Results flagged for a closer look

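For 8 of the named regions, the change with age in a tissue differed from the mean change of the other tissues, as tested with limma in the fit of all 24 arrays (adjusted over all 25773 targets). The regions had been named for a large change in that tissue on the same arrays, which favours a difference, so that the list is a description. Over all targets, 5.59% to 9.55% were called higher and 4.5% to 14.6% lower in a tissue. Groups of 3 arrays are too small to test a single array as an outlier.

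On chromosome 1, chr1:85304494-85305390_R rose more in WAT than elsewhere, by a log2 difference of 2.39 (standard error, SE, 0.21, adjusted p = 3.57e-06), and less in the liver, by -0.69 (SE 0.21, adjusted p = 0.0315). In this fit the liver was read by the probe that is not its brighter one, with a liver change of 1.66. The neighbouring chr1:85036677-85038530_R likewise rose more in WAT, by 2.31 (SE 0.44, adjusted p = 0.00239), and less in the lung, by -1.44 (SE 0.44, adjusted p = 0.0365).

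In the liver, chr12:81221532-81232030_F differed from the other tissues by -3.57 (SE 0.37, adjusted p = 1.18e-05), a size that rests partly on aged signals below detection. The region chr8:49866197-49866841_R differed by -2.88 (SE 0.31, adjusted p = 1.77e-05). In the lung, chr16:8738782-8830148_F differed by -1.41 (SE 0.30, adjusted p = 0.00566). In the kidney, chr9:89167172-89168980_F differed by 3.57 (SE 0.58, adjusted p = 0.000370). In WAT, chr17:29378878-29379589_F differed by 3.0 (SE 0.67, adjusted p = 0.00715) and chr8:126268510-126290810_F by -1.46 (SE 0.26, adjusted p = 0.00159). All arrays of a tissue share a slide, so that a difference between tissues and one between slides cannot be told apart.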

How the results depend on the processing

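Precision is limited by 3 mice per group and, for dim regions, by the signal over background. The counts of detected regions stayed within 1.5 times under each filter tried. Several settings moved the counts of calls by more than 1.5 times, and the cause was not tested.

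For age, normexp gave 37 higher and 1067 lower regions in the liver, 4 lower in the lung, and 111 higher and 1958 lower in the kidney. Spike-in scaling gave 104 lower in the liver, 16 higher in the lung, and 396 higher and 312 lower in the kidney. With no filter on dim probes the liver had 1296 lower, the lung 10 higher and 5 lower, and WAT 11 and 4. Detection on all 6 arrays left 8 higher and 8 lower in WAT. With all 24 arrays in 1 fit, 1044 were lower in the liver, 21 lower in the lung, 132 higher in the kidney, and 149 higher and 165 lower in WAT. The methods' t-test gave 24 higher and 271 lower for the liver, 2 and 4 for the lung, and 0 and 0 for WAT, where 149 and 205 had an unadjusted p under 0.05.

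With the replicate number as a block, limma called 21 higher and 60 lower for the liver, 0 and 0 for the lung (133 and 316 at an unadjusted p under 0.05) and 7 and 0 for WAT (155 and 179). Young liver 3 and aged liver 4 had no partner, and the deviations of same-numbered mice correlated by -0.115 to 0.187, so the samples share only a number.

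Leaving out each mouse in turn, the age counts ranged from 28 to 62 higher and 151 to 473 lower in the liver, 0 to 34 and 0 to 53 in the lung, 179 to 241 and 1052 to 1261 in the kidney, and 5 to 13 and 0 to 4 in WAT. The differences between tissues ranged from 1138 to 1317 and 174 to 215 in the liver, 219 to 270 and 866 to 980 in the lung, 441 to 584 and 347 to 455 in the kidney, and 202 to 264 and 912 to 1063 in WAT. The age-by-tissue counts ranged from 20 to 43 and 178 to 431 in the liver, 100 to 272 and 10 to 30 in the lung, 32 to 66 and 129 to 331 in the kidney, and 126 to 299 and 14 to 39 in WAT.

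For the tissue difference, spike-in scaling gave 411 higher and 572 lower for the liver, 1302 and 118 for the lung, 303 higher for the kidney and 145 higher for WAT, and normexp 107 lower in the liver. At 90W there were 407 higher and 633 lower in the lung, 307 higher in the kidney and 584 lower in WAT. Regions 4-fold above every other tissue numbered 26 in the liver and 57 in the lung with spike-in scaling, and 34 in the liver, 4 in the kidney and 2 in WAT at 90W. For age by tissue, normexp gave 10 higher for the liver, 401 higher and 12 lower for the lung, and 30 higher and 513 lower for the kidney. Spike-in scaling gave 18 higher and 87 lower in the liver, 7 higher in the lung, 80 higher and 9 lower in the kidney, and 32 higher and 18 lower in WAT. Median centring gave 381 lower in the kidney, and detection on all 24 arrays 15 higher in the liver and 35 in the kidney.

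For single regions, 621 values under these settings stayed on the same side of the threshold, 97 lost and 10 gained a call, and 1 turned its sign: chr17:6265275-6362150_R in the kidney, at -0.039 with normexp (adjusted p = 0.805). Leaving out mice, 670 stayed, 107 lost and 3 gained a call.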
